A study of Mus musculus with 2 samples.

Results

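The cytosolic ribosome is built from ribosomal RNA and a set of proteins whose names begin with Rpl in the large subunit and with Rps in the small subunit. Of 32285 genes counted by snRNA-seq of epididymal WAT, 86 were taken as ribosomal protein genes by their symbols, namely Rpl or Rps followed by a digit, Rplp0, Rplp1, Rplp2 and Rpsa. Names that mark a pseudogene were left out (5 in the table), and so were the S6 kinases (10 symbols). The rule reads the symbols alone. It took in Rps19bp1, which encodes a partner of RPS19 and SIRT1 and not a ribosomal protein, and Rpl7l1, a relative of Rpl7 whose yeast counterpart acts in the assembly of the large subunit.

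Male C57BL/6N mice, 8 weeks old at the start, were fed HF for 6 weeks and then HF for 8 more weeks with 3 injections per week. HF-PBS mice received PBS, and HF-HHT mice received homoharringtonine (HHT), which was dissolved in DMSO and diluted in PBS. Both groups therefore carry the same high-fat diet, with no chow-fed group in these data. Frozen fat of 3 mice was pooled per group, and the nuclei were stained with DAPI, flow-sorted and made into 1 library per group with the 10x Genomics 3′ kit. With 1 library per group there is no test of the treatment, every ratio compares 2 libraries, and the 95% intervals given here cover counting error only.

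Ribosomal protein messenger RNAs are short, abundant and mostly cytoplasmic. Nearly all begin with a cytosine followed by a run of pyrimidines, the 5′ terminal oligopyrimidine (TOP) motif, through which mTORC1 and the binding protein Larp1 control their translation and their stability. HHT is a plant alkaloid that occupies the peptidyl transferase centre of the large subunit and blocks the first steps of elongation. In a nuclear preparation these transcripts reach a droplet from the nucleus, from cytoplasm that stays attached to it, and from free RNA, the RNA of broken cells in the suspension. The level in free RNA was therefore measured beside each level in nuclei, from the barcodes ranked 45000 to 90000 by depth.

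The start sites of some genes named in the results are shown because the pyrimidine run is the sequence feature known for this family, and to show annotated starts with and without it. The sequences are from RefSeq on GRCm38.p6 and cover 15 bases before to 15 bases from the annotated start, with the longest run of C and T in capitals. Rps6 (the small-subunit protein phosphorylated by the S6 kinases) is from chr4:86857353-86857382, minus strand, Rps18 from chr17:33955651-33955680, minus strand, Rpl28 from chr7:4792950-4792979, plus strand, and the stalk gene Rplp2 from chr7:141447636-141447665, plus strand. Of the genes that stood apart, Rpl10a is from chr17:28328456-28328485, plus strand (one of its RefSeq starts), Rpl7l1 from chr17:46782642-46782671, minus strand, and Rps19bp1 from chr15:80264292-80264321, minus strand.
Rps6: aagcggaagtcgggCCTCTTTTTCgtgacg
Rps18: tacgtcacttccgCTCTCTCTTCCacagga
Rpl28: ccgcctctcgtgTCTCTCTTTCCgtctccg
Rplp2: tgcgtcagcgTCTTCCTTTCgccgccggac
Rpl10a: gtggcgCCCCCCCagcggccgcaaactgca
Rpl7l1: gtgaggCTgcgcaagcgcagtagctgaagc
Rps19bp1: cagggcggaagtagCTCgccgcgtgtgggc

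The first 4 windows hold a run of 10, 11, 11 and 10 pyrimidines across or next to the start, and the windows of Rpl10a, Rpl7l1 and Rps19bp1 hold at most 7, 2 and 3. Rps26, low in APCs, and one start of Rps27l, low in macrophages, hold runs of 9, while Rps2, Rps23, Rpl10 and Rpl9, among the high ratios of free RNA, hold at most 6, 6, 3 and 4. RefSeq promoter sequence was matched for 66 of the 86 genes. A run of at least 8 C or T on the sense strand lay in this window for 27 of the 66, or 40.9%. Of the 27025 genes of the whole promoter table, 13.9% had such a run. The annotated start can miss the used start by some bases, so a window without a run says only that these letters are not in it.

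The HF-PBS library had 76197757 UMIs and the HF-HHT library 73313558, of which 8987405 and 8031942 were free RNA as defined. After calling and filtering, 6650 and 6436 nuclei remained, with medians of 4304 and 3976 UMIs, and 13 barcodes were kept in both libraries. Nuclei were clustered without any ribosomal protein gene among the features, and the clusters were named from marker lists. Of the 3 classes compared in depth, adipocytes had 148 nuclei in HF-PBS and 847 in HF-HHT, adipocyte precursor cells (APCs) 751 and 670, and macrophages 3221 and 1436, and none of the markers of these 3 lists was at 0 in its own class. The duct-like and multiciliated epithelial classes had nuclei in HF-HHT alone.

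Summed over the genes, ribosomal protein transcripts were at 2341 CPM (UMI counts scaled to 1000000 per class and library) in HF-PBS nuclei and at 4305 CPM in HF-HHT nuclei (log2 ratio 0.88, 95% interval 0.87 to 0.89). Free RNA held far more of them, 7069 CPM with PBS and 15796 CPM with HHT, and the log2 ratio there was 1.16 (1.15 to 1.17), or 2.23-fold. Nuclei of all classes together thus held 33.1% of the free RNA level in HF-PBS and 27.3% in HF-HHT. By subunit, the log2 ratio in nuclei was 0.90 (0.89 to 0.92) for the Rpl genes and 0.85 (0.83 to 0.87) for the Rps genes, and in free RNA 1.17 and 1.15. The gap was wider in monocytes and dendritic cells, at 0.57 (0.53 to 0.61) and 0.39 (0.35 to 0.44). In mesothelial cells the ratios were 0.68 (0.63 to 0.73) and 0.55 (0.49 to 0.60). B cells gave 1.36 (1.24 to 1.48) and 1.16 (1.03 to 1.30), with overlapping intervals. The Rps genes had the higher ratio in macrophages (1.09 and 1.15), dividing cells (1.33 and 1.38) and perivascular cells (1.56 and 1.58), also with overlapping intervals. In APCs both ratios were 0.65.

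Adipocyte nuclei held the least of any class in both libraries, 933 CPM (890 to 977) with PBS and 1184 CPM (1162 to 1205) with HHT. In HF-PBS the next classes were dividing cells at 1379 CPM and macrophages at 1433 CPM, whose intervals overlap, followed by perivascular cells at 1720 and APCs at 2160. Endothelial cells were at 3945 CPM, B cells at 4463, T and NK cells at 4773, monocytes and dendritic cells at 6224, and mesothelial cells, which cover the fat depot, at 6877 CPM. In HF-HHT the order began with adipocytes and macrophages, at 3102 CPM. APCs at 3391 and dividing cells at 3516 CPM overlapped there, as did T and NK cells at 8689 with monocytes and dendritic cells at 8729, and mesothelial cells at 10600 with B cells at 10769. The duct-like epithelium was at 4245 CPM and the multiciliated epithelium at 7109 CPM.

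The log2 ratio of HF-HHT over HF-PBS was above 0 in 10 of the 11 classes present in both libraries. It was 0.29 in endothelial cells, 0.34 in adipocytes, 0.49 in monocytes and dendritic cells, 0.62 in mesothelial cells, 0.65 in APCs, 0.86 in T and NK cells, 1.11 in macrophages, 1.27 in B cells, 1.35 in dividing cells and 1.57 in perivascular cells. The last rests on 28 nuclei per library, in which free RNA may make up 56.1% of the ribosomal protein UMIs in HF-PBS and all of them in HF-HHT, so that no ratio is left after subtraction. The B-cell ratio rests on 754 nuclei in HF-PBS and 58 in HF-HHT. In these the 9 B-cell markers summed to 17219 and 7295 CPM, and their part in the ratio was not tested. The erythroid cluster alone went the other way, from 28106 CPM to 15015 CPM, a log2 ratio of -0.90 (-0.98 to -0.83). Its 54 HF-PBS nuclei had a median of 757 UMIs and had 7 of 10 erythroid markers at 0, so the nuclei of this cluster were not alike in the 2 libraries. Outside this cluster, no class in either library reached the free RNA level, and mesothelial nuclei of HF-PBS came nearest, at 97.3% of it.

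**Figure D1:**
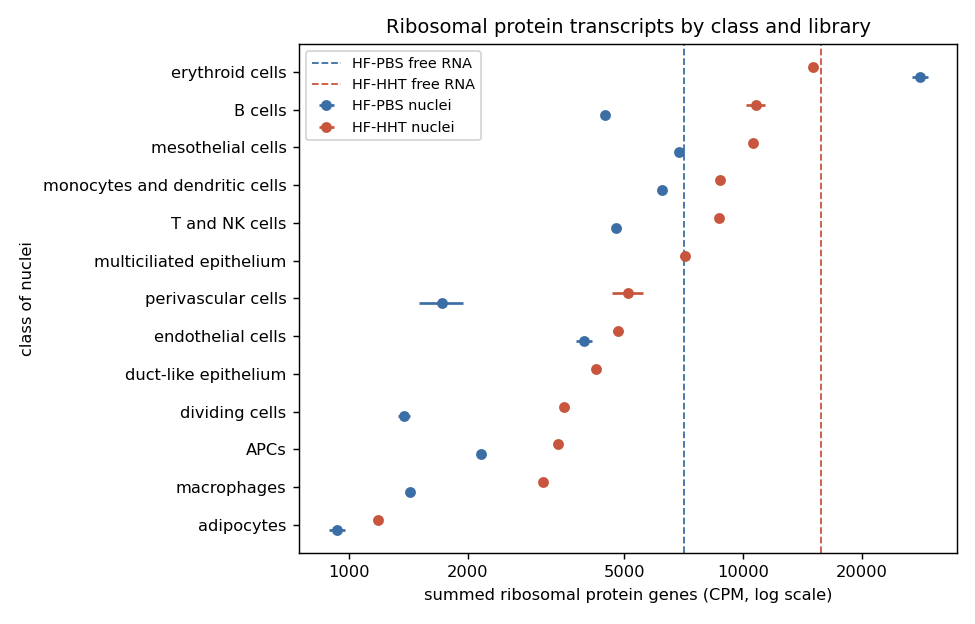
Summed CPM of the ribosomal protein genes on a log axis for each class of nuclei, with points for the HF-PBS and HF-HHT libraries, bars for the exact 95% Poisson intervals and dashed lines for free RNA of each library. Adipocytes are lowest in both libraries (933 and 1184 CPM), and the free RNA lines stand at 7069 and 15796 CPM.

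In macrophages, the phagocytes that gather around dying fat cells in obese WAT, nearly every ribosomal protein gene was higher in HF-HHT. The sum was 1433 CPM (1416 to 1450) with PBS and 3102 CPM (3061 to 3144) with HHT, a log2 ratio of 1.11 (1.09 to 1.14). Of the 86 genes, 82 had at least 20 counts over both libraries, and 79 of these were at least 1.5-fold higher and 0 at least 1.5-fold lower. Among all 13817 genes measured in this class, 22.9% were higher and 6.39% lower by the same rule. The median log2 ratio of the ribosomal protein genes was 1.15 and that of all measured genes 0.16. The macrophage cluster with Mmp12 and Gpnmb among its leading genes gave 1.04 (1.0 to 1.07) and the one with Cd163 and F13a1 gave 1.18 (1.14 to 1.22).

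The macrophage level stood at 20.3% of the free RNA level in HF-PBS and at 19.6% in HF-HHT. These fractions depend on how free RNA is taken, since barcodes of 10 to 50 UMIs gave a free RNA log2 ratio of 1.71, above that of macrophages. The 13 genes of the mitochondrial genome, whose RNA is not made in the nucleus, were at 132 and 292 CPM in these nuclei, a log2 ratio of 1.14. A list of 17 other abundant cytoplasmic messenger RNAs, such as Actb, Fth1 and Gapdh, gave 1.18, and Malat1, an RNA kept in the nucleus, gave -0.27. The part of attached cytoplasm and of free RNA in the macrophage ratio was not tested. In macrophage nuclei without a single mitochondrial UMI the ratio was 0.80, and after the subtraction of the largest free RNA share that foreign markers allow it was 1.20.

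Among the high macrophage ratios was that of Rps2, a small-subunit protein at the entry of the messenger RNA channel, from 7.59 to 24.1 CPM (log2 ratio 1.67, 1.34 to 2.0). Rpl28 was at 9.62 and 30.7 CPM (1.67), Rpl13 at 18.4 and 56.2 CPM (1.61), and Rps29 at 23.6 and 68.6 CPM (1.54). Rps23, a protein of the decoding centre, was at 15.9 and 45.8 CPM (1.53). Few genes stood low. Rpl10a, the protein tagged in mice made for ribosome capture, was at 33.2 CPM (652 UMIs) in HF-PBS and 39.1 CPM (274 UMIs) in HF-HHT, a log2 ratio of 0.24 (0.03 to 0.44). Rpl7l1 was at 23.3 and 28.1 CPM (0.27, 0.02 to 0.52), and Rps27l, a p53 target and paralog of Rps27, at 6.06 and 8.84 CPM (0.55, 0.08 to 1.0).

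APCs, the fibroblast-like cells that give rise to adipocytes, showed a smaller difference. The sum was 2160 CPM (2120 to 2201) with PBS and 3391 CPM (3323 to 3461) with HHT, a log2 ratio of 0.65 (0.61 to 0.69). Of 82 measured genes, 51 were at least 1.5-fold higher and 0 lower, against 22.8% and 8.01% of the 12177 genes measured in APCs. Their median log2 ratio was 0.66 against 0.17 for all genes. With TMM factors 31 genes were higher, and with a minimum fold of 2 there were 10. For these 2 settings the share of all genes was not computed. The APC level was 30.6% of free RNA with PBS and 21.5% with HHT. The mitochondrial genes gave a log2 ratio of 0.65 and the cytoplasmic list 0.70 in the same nuclei, and their part in the result was not tested.

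In APCs, Rpl18 was at 11 CPM (56 UMIs) in HF-PBS and 30 CPM (83 UMIs) in HF-HHT, the highest log2 ratio of the class among genes with at least 50 counts (1.45, 0.94 to 1.96). Also high were Rpl21 with 15 and 38.3 CPM (1.36), Rpl13a, which in human cells also represses translation of inflammatory messages, with 31.1 and 69.1 CPM (1.15), and Rpl36 with 13.2 and 28.6 CPM (1.12). At the other end stood Rps26, a protein at the exit of the messenger RNA channel, with 26.6 and 24.2 CPM (-0.13, -0.58 to 0.30). Rpl10a at 37.6 and 42.3 CPM (0.17) and Rpl7l1 at 16.9 and 19.5 CPM (0.21) were among the lowest here as in macrophages, and their intervals include 0.

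In adipocytes, with the main filters, the share of ribosomal protein genes that were higher was below that of all genes. The log2 ratio of the sum was 0.34 (0.27 to 0.42), from 933 to 1184 CPM. Of 82 measured genes, 24 (29.3%) were at least 1.5-fold higher and 0 lower, while 35.5% of all 12586 genes measured in adipocytes were higher and 12.1% lower. With no upper limit on UMIs and genes per nucleus, 36 of the genes were higher. The share of all genes was not computed without that limit, so the order of the shares is known for the main filters alone. The median log2 ratio was 0.39, beside 0.32 for all genes, and with TMM or median-of-ratios factors the sum gave 0.07 and 0.05. Adipocyte nuclei were at 13.2% of the free RNA level in HF-PBS and at 7.49% in HF-HHT. The mitochondrial genes gave a log2 ratio of 0.22 (0.01 to 0.43) in these nuclei. The cytoplasmic list gave 0.01 (-0.09 to 0.11), below the 0.34 of the ribosomal protein genes. From adipocyte nuclei, free RNA may make up as much as 42% and 64.2% of the ribosomal protein UMIs, and with that amount subtracted the HF-PBS level was 541 CPM and the HF-HHT level 424 CPM, a log2 ratio of -0.35. Nuclei of 2000 to 6000 UMIs gave -0.54, from 15 nuclei in HF-PBS and 131 in HF-HHT. Markers of other cells moved with this comparison, since the 12 macrophage markers summed to 1624 CPM in HF-PBS adipocyte nuclei and 188 CPM in HF-HHT ones, and the 11 APC markers to 1714 and 825 CPM. Their part in the ratio was not tested.

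Counts per gene were low in the 148 HF-PBS adipocyte nuclei. Rpl35, a protein at the exit of the nascent chain tunnel, had 1 UMI there and 62 in HF-HHT, 0.525 and 6.20 CPM (log2 ratio 3.56, with an interval from 1.03 to 8.89). Rpl39, which lines the tunnel, had 6 and 100 UMIs, 3.15 and 10.0 CPM (1.67, 0.49 to 3.15). Rpl35a, one of the genes mutated in human Diamond-Blackfan anaemia, was at 4.72 and 13.5 CPM (1.52, 0.55 to 2.68), and Rpl21 at 4.2 and 11 CPM (1.39, 0.36 to 2.64). Rpl7l1, among the lowest ratios in APCs and macrophages, was at 6.82 and 14.8 CPM here (1.12, 0.30 to 2.06). Below 0 were Rpl10a at 23.1 and 17.2 CPM (-0.42, -0.91 to 0.09), Rpl3, whose tip reaches the peptidyl transferase centre, at 14.7 and 12.2 CPM (-0.27), and Rps14, another human disease gene of anaemia, at 29.9 and 25 CPM (-0.26). None of the genes below 0 had an interval that excluded 0 in adipocytes, and 12 of those above 0 did. The share of all genes by this interval rule was not computed, and the median of all genes in adipocytes was itself above 0 (0.32).

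**Figure D2:**
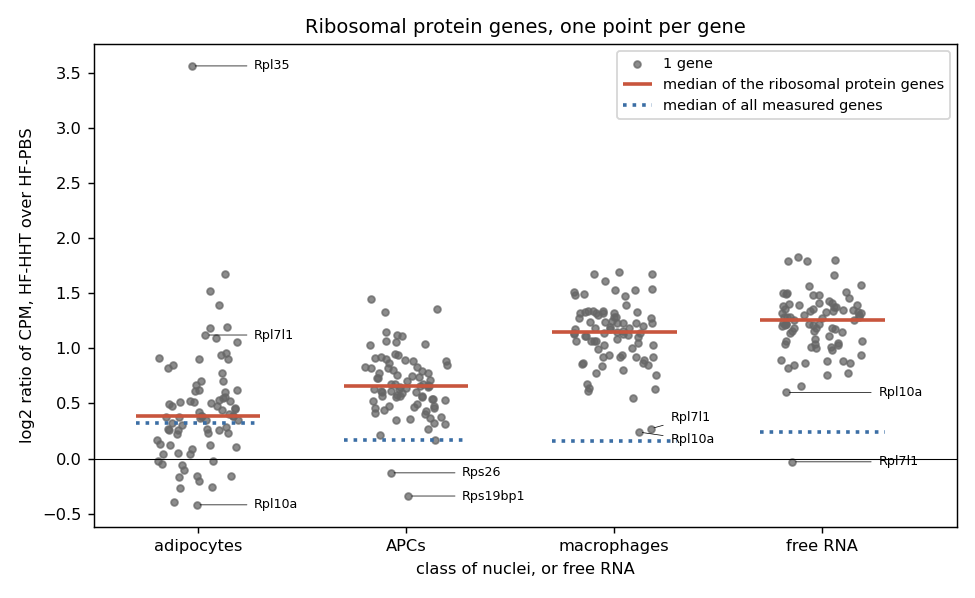
Log2 ratio of CPM, HF-HHT over HF-PBS, for each measured ribosomal protein gene (points) in adipocytes, APCs, macrophages and free RNA, with the median of these genes (solid line) and of all measured genes (dotted line). The medians are 0.39, 0.66, 1.15 and 1.26, against 0.32, 0.17, 0.16 and 0.24 for all genes.

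Free RNA showed the same one-sided pattern with far more counts per gene. Of 83 genes measured there, 82 were at least 1.5-fold higher in HF-HHT and 0 lower, against 34.7% and 12.8% of 15527 genes. The makeup of free RNA differed too. Summed erythroid markers were at 32.4 and 1840 CPM, adipocyte markers at 1371 and 4529 CPM, and macrophage markers at 5583 and 1947 CPM, and their part in the result was not tested. The highest log2 ratios were those of Rps18, from 40.9 to 145 CPM (1.83, 1.66 to 2.0), Rps2, from 33.3 to 116 CPM (1.80), Rpl21, from 40.9 to 141 CPM (1.79), Rpl9 (1.79) and Rpl10, from 15.7 to 49.6 CPM (1.66). The exception was Rpl7l1, at 33.4 CPM (300 UMIs) and 32.7 CPM (263 UMIs), a log2 ratio of -0.03 (-0.27 to 0.22). Rpl10a was next lowest, at 94.9 and 143 CPM (0.60, 0.47 to 0.73). The mitochondrial genes were at 1152 and 2117 CPM in free RNA and the cytoplasmic list at 2700 and 5904 CPM.

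Across the 83 genes with at least 100 UMIs in nuclei, the level in nuclei and the level in free RNA of the same library went together closely, with Pearson's r of 0.97 and Spearman's rho of 0.96 in HF-PBS and 0.98 and 0.97 in HF-HHT. These points are genes of 1 library, not replicates. The highest level was that of Rplp1, a protein of the acidic stalk that recruits elongation factors (CPM is not divided by gene length). It was at 80.8 and 141 CPM in nuclei and at 346 and 594 CPM in free RNA, 23.3% and 23.7% of the latter. Rpsa, also known as the laminin receptor, was at 74.3 and 117 CPM, Rps9 at 62.5 and 89.7, Rps14 at 62.0 and 87.3, and Rps24 at 58.1 and 93.1 CPM.

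A few genes held more of the free RNA level in nuclei than the rest. Rpl7l1 was at 62.2% of it in HF-PBS and 68.9% in HF-HHT, with 20.8 and 22.6 CPM in nuclei. In macrophages it reached 69.7% and 85.8%, where the median gene of the family was at 19.8% and 19.4%. Rps19bp1 was at 61.7% and 50.1%, and Rpl10 at 63.3% and 44.6%. Rps18 (58.7%) and Rpl22 (51.2%) were among the highest in HF-PBS. In HF-HHT they were at 31.2% and 32.9%, with Rpl31 (33.5%) and Rpl17 (33.3%) above them. At the low end in HF-PBS were Rps27rt, a single-exon gene, at 20.6% (24.7% in HF-HHT), Rplp1, and Rpl7 at 26.2% (24.2% in HF-HHT). In HF-HHT Rpl27 (21.7%) and Rps26 (21.9%) were below these genes. Across the same genes, the log2 ratio of nuclei over free RNA had a Pearson's r of 0.38 with log2 gene length in HF-PBS and 0.23 in HF-HHT. Spearman's rho was 0.28 and 0.24. Of the 86 genes, 60 have a pseudogene named after them in the annotation, and reads of near-identical copies can be split or dropped in counting, so that single-gene levels of the family are uncertain.

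**Figure D3:**
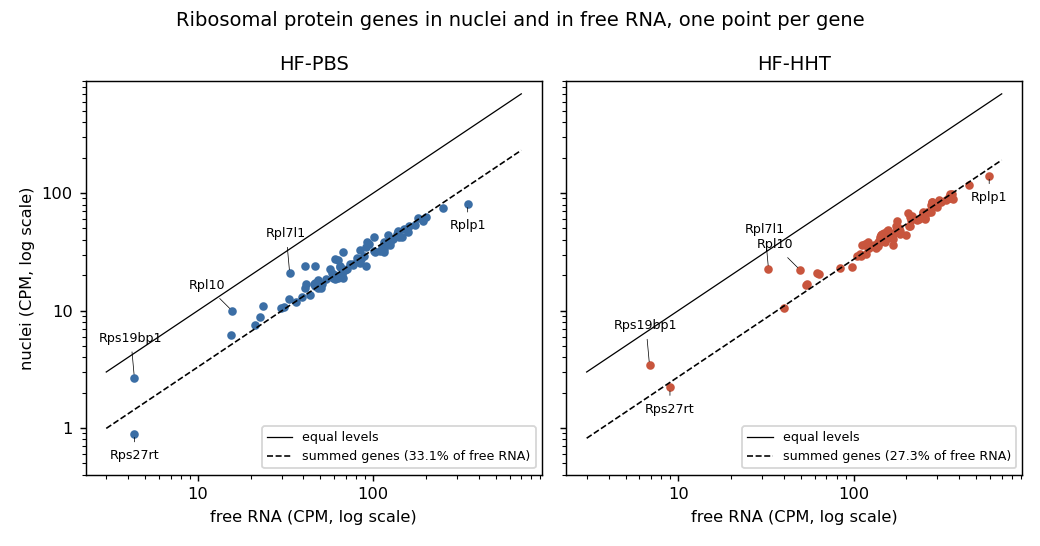
CPM of each ribosomal protein gene with at least 100 UMIs in nuclei (vertical axis) against its CPM in free RNA (horizontal axis), both on log axes, for HF-PBS on the left and HF-HHT on the right. Most genes lie along the dashed line of the summed level, 33.1% and 27.3% of free RNA, and Rpl7l1 lies above it at 62.2% and 68.9%.

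The stalk proteins Rplp0, Rplp1 and Rplp2 form the arm of the large subunit to which elongation factors bind. In macrophages Rplp0 was at 12.9 and 30.4 CPM (log2 ratio 1.24, 0.97 to 1.51), Rplp1 at 38.8 and 91.3 CPM (1.23) and Rplp2 at 26.0 and 54.6 CPM (1.07). In APCs the ratios were 0.74, 0.48 and 0.63. In adipocytes Rplp1 was at 32.0 and 30.9 CPM (-0.05, -0.45 to 0.37), with Rplp0 at 0.85 and Rplp2 at 0.39, all with intervals that include 0. As a share of all ribosomal protein UMIs, Rplp1 ranged from 2.49% in HF-HHT B cells to 5.04% in HF-PBS mesothelial cells.

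Rpl5 and Rpl11, which with 5S ribosomal RNA bind the p53 ligase Mdm2 when ribosome assembly fails, had ratios below the family's medians in macrophages, APCs and adipocytes. In macrophages Rpl5 was at 25.4 and 48.6 CPM (0.94, 0.73 to 1.14) and Rpl11 at 19.6 and 36.9 CPM (0.92, 0.68 to 1.15). In APCs their log2 ratios were 0.40 (0.09 to 0.71) and 0.52 (0.14 to 0.90), and in adipocytes 0.04 (-0.48 to 0.59) and 0.30 (-0.29 to 0.94). Apart from that of Rpl5 in macrophages, these intervals reach the medians of 1.15, 0.66 and 0.39. In free RNA, with a median of 1.26, Rpl5 was at 1.20 and Rpl11 at 1.48. Mdm2 itself was at 300 and 204 CPM in macrophages (-0.55, -0.64 to -0.47) and at 204 and 86.7 CPM in adipocytes (-1.23, -1.41 to -1.06). In APCs it was at 85.8 and 78.1 CPM, with an interval that includes 0 (-0.14, -0.38 to 0.10). Mdm2 was also at 321 and 161 CPM in free RNA (-1.0).

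Rpl3, and Rpl4 and Rpl17, which line the tunnel for the nascent chain, belong to the large subunit, and Rps23 to the decoding centre of the small one. In macrophages the log2 ratio was 0.68 (0.49 to 0.87) for Rpl3, 0.89 for Rpl4, 0.92 for Rpl17 and 1.53 for Rps23. In APCs it was 0.65, 1.04, 0.46 and 0.89 for these genes. Rps6 was at 14.7 and 32.1 CPM in macrophages (1.13), at 21.1 and 39.4 CPM in APCs (0.90) and at 14.7 and 13.7 CPM in adipocytes (-0.10, -0.70 to 0.54). Rps10, which is ubiquitinated by the collision sensor Zfp598 on stalled ribosomes, gave 1.23, 0.87 and 0.26 in these classes. Rpl7 was at 11.8 and 28.7 CPM in macrophages (1.28), unlike its relative Rpl7l1.

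Of the paralogs, Rpl22l1 was at 7.89 and 14.1 CPM in macrophages (0.84, 0.46 to 1.21), close to Rpl22 at 20.3 and 34.8 CPM (0.78, 0.54 to 1.01). Rpl36al (1.33) and Rpl36a (1.18) had overlapping intervals there. Rps27l at 0.55 (0.08 to 1.0) and Rps27 at 1.14 (0.80 to 1.48) also overlapped. In free RNA, Rps27l gave 1.39 and Rps27 gave 1.36. The paralogs known from muscle and testis were at or near 0, with 6 UMIs for Rpl3l and 8 for Rpl39l over all nuclei and none for Rpl10l, which with 0 of all the UMIs in nuclei allows up to 3 counts per library.

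In HF-PBS, shallow nuclei were at higher CPM of the ribosomal protein genes than deep ones. In macrophages of HF-PBS the level was 2176 CPM at 1000 to 2000 UMIs and 1330 CPM at 8000 to 16000 UMIs. At matched depth the macrophage log2 ratio was 0.91, 0.83, 1.0 and 1.32 in 4 bins from 1000 to 16000 UMIs, and that of APCs 0.37, 0.42, 0.46 and 0.94. Adipocytes gave -0.10 at 4000 to 8000 UMIs, with 24 nuclei in HF-PBS, then 0.37 and 0.38 in the deeper bins. APC nuclei had median depths of 5800 UMIs with PBS and 3347 UMIs with HHT.

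**Figure D4:**
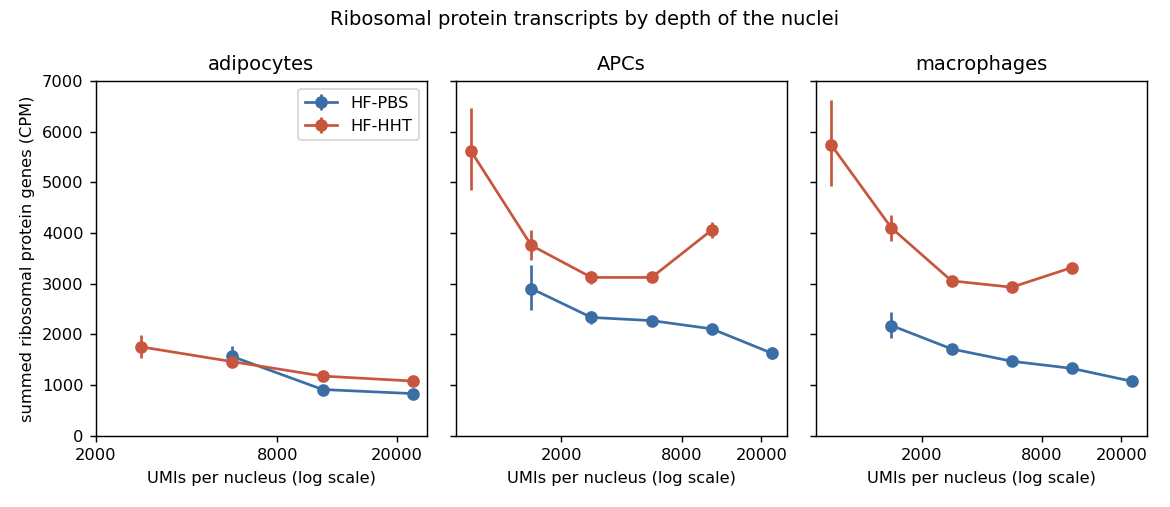
Summed CPM of the ribosomal protein genes (vertical axis) by UMIs per nucleus (log axis, at the middle of each bin) in adipocytes, APCs and macrophages, for bins of at least 20 nuclei, with exact 95% Poisson intervals. In macrophages HF-HHT lies above HF-PBS in each shared bin (log2 ratios 0.83 to 1.32), and in adipocytes the lines cross at 4000 to 8000 UMIs (-0.10).

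Other messenger RNAs with a TOP motif and partners of the ribosome were compared from a list of 19 measured genes. In macrophages 9 were at least 1.5-fold higher and 0 lower, where 22.9% of all genes were higher, with a median log2 ratio of 0.58. Eef1a1, which brings aminoacyl-tRNA to the ribosome, was at 51.1 and 128 CPM (1.33, 1.20 to 1.46). It is also in the cytoplasmic list, so the 2 lists are not separate for this gene. Fau, the source of a small-subunit protein, was at 31.8 and 70.9 CPM (1.16, 0.98 to 1.33). The initiation factor genes Eif3e, at 65.2 and 63.0 CPM (-0.05), and Eif3h, at 91.5 and 91.4 CPM (0.00), had ratios near 0. In APCs 4 of the 19 were higher and 1 lower (median 0.01) and in adipocytes 4 and 1 (0.23), no more than the 22.8% and 35.5% of all genes that were higher there. In free RNA the counts were 14 and 0 (0.74), against 34.7% and 12.8%.

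Genes that control ribosomal protein synthesis (mTORC1, its regulators, Larp1 and the S6 kinases) had medians near 0. Of 17 genes, 0 were higher and 0 lower by 1.5-fold in macrophages, 1 and 1 in APCs and 2 and 2 in adipocytes. Of all genes measured in these classes, 22.9%, 22.8% and 35.5% were higher and 6.39%, 8.01% and 12.1% lower. The median log2 ratios of the 17 genes were -0.04, 0.03 and -0.08. Larp1, which binds the TOP motif, was at 137 and 195 CPM in macrophages (0.51, 0.41 to 0.60). In adipocytes Eif4ebp1, a translation repressor, was at 42.5 and 91.5 CPM (1.11, 0.78 to 1.45), and the S6 kinase gene Rps6kb1 at 131 and 252 CPM (0.94, 0.76 to 1.14). Maf1, a repressor of RNA polymerase III, was lower in adipocytes, at 9.44 and 3.9 CPM (-1.28, -2.12 to -0.38).

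Chaperones of ribosomal proteins and late subunit factors had median log2 ratios of 0.07 in macrophages (3 of 19 higher), 0.18 in APCs (2 of 18) and 0.34 in adipocytes (6 of 17), with 0 lower in each. None of these shares was above the 22.9%, 22.8% and 35.5% of all genes that were higher in the same classes. Rrs1, which acts in the assembly of the large subunit, was at 3.67 and 15.6 CPM in adipocytes (2.09, 1.01 to 3.42) and at 2.85 and 5.28 CPM in macrophages (0.89, 0.25 to 1.51). The stalled ribosome response list gave medians of 0.00, 0.02 and 0.22, and Zfp598 was at 13.6 and 31.7 CPM in adipocytes (1.22, 0.64 to 1.85). Nuclear genes for mitochondrial ribosomal proteins, which are not part of the cytosolic ribosome, had medians of 0.36 in macrophages (20 of 78 higher, 0 lower, beside 22.9% and 6.39% of all genes), 0.26 in APCs (21 of 68 and 1, beside 22.8% and 8.01%) and 0.37 in adipocytes (27 of 76 and 6, beside 35.5% and 12.1% of all genes). The 4 RNAs retained in the nucleus gave medians of -0.31, -0.18 and -0.46.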

How the data were processed

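Nuclei of epididymal WAT were counted by the authors with Cell Ranger 5.0.0 on mm10 (submitters' processing notes), and the deposited values are raw UMI counts per gene for every barcode, with no normalization. The setting for intron reads was not given in the sources used here. The authors' labels per nucleus were not used here.

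Nuclei were called from the counts by depth, with 3000 expected, and then, from 500 UMIs up, by testing each barcode against the free RNA profile (10000 simulations, false discovery rate 0.01). Doublets were scored with Scrublet in scanpy 1.11.5, and 6.18% and 6.08% were removed. The study's limits followed (over 400 genes, UMIs and genes under the 95th percentile, mitochondrial UMIs under 0.5%). Libraries were integrated and clustered into 14 clusters in Seurat 5.3.0 under R 4.3.3, with 2000 features and 30 dimensions. Calling and intervals were tested on simulated data.

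UMIs were summed per class in Python 3.11.15 (pandas 2.3.3, numpy 2.4.6, scipy 1.17.1). Intervals are exact (Poisson for levels, conditional binomial for ratios). Genes counted as measured from 20 UMIs in the 2 libraries together. A gene at 0 was set at 3 counts per library. The free RNA share of a class was limited by the lowest ratio of foreign marker lists. Alternatives were TMM (edgeR 4.0.16), median-of-ratios factors, other totals, subtraction of free RNA and other filters. Barcodes added by a looser filter were assigned by likelihood to the class profiles without ribosomal protein genes, which agreed for 94.4% of clustered nuclei. Coordinates are from GENCODE vM21 on GRCm38.

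Genes named are the 10 highest in nuclei, the 8 highest and 8 lowest ratios per class with at least 50 counts (a part of these is printed, and some are not reported here), the 8 highest and 8 lowest in nuclei over free RNA, the stalk genes, paralogs and genes of known role. From each companion list up to 4 were named, and Mdm2 in free RNA and Zfp598 come under that rule. The members and lists were chosen with earlier results of these data known.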

Additional observations from a re-analysis of the deposited data

Results flagged for a closer look

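The summed ribosomal protein level was lower in HF-HHT only in the erythroid cluster, with a log2 ratio of -0.90, where the other 10 classes present in both libraries were above 0. The difference between classes was not tested. In the HF-PBS nuclei of this cluster the 10 erythroid markers summed to 229 CPM, against 22152 CPM in its HF-HHT nuclei, and the level of ribosomal protein transcripts in HF-PBS was 398% of that in free RNA. The part of this difference in cell makeup in the ratio was not tested.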

How the results depend on the processing

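No paired analysis was possible because each group is 1 library, and no replicate could be left out. In macrophages the log2 ratio of the sum stayed above 0 throughout: 0.96 with TMM factors, 0.95 with median-of-ratios factors, 1.20 with free RNA subtracted, 1.09 with doublets kept, 1.05 with every barcode of at least 500 UMIs, 0.80 in nuclei without a mitochondrial UMI, 1.21 with no upper limit on UMIs and genes, and 0.92 in nuclei of 2000 to 6000 UMIs. The 3 choices made after seeing the data gave 1.04 and 1.18 (each macrophage cluster alone) and 1.41 (monocytes and dendritic cells added). In APCs the values that moved were 0.50, 0.48, 0.51, 0.60, 0.58 and 0.45 (TMM, median-of-ratios, subtraction, no mitochondrial UMI, no upper limit, 2000 to 6000 UMIs). In adipocytes they were 0.07, 0.05, -0.35, 0.24, 0.45 and -0.54 in the same order, so the direction reversed with subtraction and at 2000 to 6000 UMIs. Free RNA taken from barcodes of 10 to 50 UMIs gave 1.71 in place of 1.16. TMM and median-of-ratios factors lower every log2 ratio, by 0.28 and 0.30 in adipocytes, 0.15 and 0.17 in APCs, and 0.15 and 0.16 in macrophages.

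APC genes at least 1.5-fold higher numbered 31 with TMM factors, 29 with median-of-ratios factors, 32 with subtraction and 30 at 2000 to 6000 UMIs, and 10 at a fold of 2. In APCs 1 gene was lower with subtraction. Adipocyte genes higher numbered 14, 14, 12, 1 and 9 in that order of settings, and 36 with no upper limit. Adipocyte genes lower numbered 2 with TMM or median-of-ratios factors, 33 with subtraction, 7 at 2000 to 6000 UMIs, 3 without mitochondrial UMIs, 2 with no minimum of counts, and 1 with doublets kept or with every barcode of at least 500 UMIs. Macrophage counts stayed between 59 and 82 higher, with 0 lower. The share of all genes was computed at the main settings alone. The counts at the other settings therefore have no such share beside them. With 1 library per group, the spread between mice was not measured.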
